A study of Saccharomyces cerevisiae with 4 samples.

Results

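The large subunit of the cytosolic ribosome of budding yeast, Saccharomyces cerevisiae, is encoded here by 81 genes, taken by standard name as every RPL gene with a number and an optional A or B, plus RPP0, RPP1A, RPP1B, RPP2A and RPP2B. They are 81 of the 6688 gene identifiers in the deposited tables. They fall into 66 genes in 33 pairs of A and B copies, 10 single-copy genes and 5 genes of the acidic stalk. The choice rests on names alone, and it was made with earlier results of these data known. The data are RNA-seq libraries of polyadenylated RNA from cultures in exponential growth in YPD, a rich medium: 2 libraries of the nhp6ab strain and 2 of WT. The name nhp6ab is commonly used for a strain without NHP6A and NHP6B, which encode small HMG-box proteins that bend DNA and work with the histone chaperone FACT. The labels give neither the alleles, nor the parent strain, nor the number of clones or cultures behind each strain.

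The large subunit joins amino acids at its peptidyl transferase centre, which is made of rRNA, and its proteins shape that centre, the exit tunnel and the binding sites of translation factors. The stalk is a flexible arm that recruits and activates the translation GTPases, with P0 as its base and pairs of P1 and P2 proteins attached to it. Most of the other proteins have duplicated genes left from an ancient whole-genome duplication, and the copies often encode nearly the same protein. In growing yeast these genes are transcribed very strongly and largely together, under Rap1, Fhl1, Ifh1 and Sfp1.

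The expected counts summed to 29115870 and 28721743 in the nhp6ab libraries and to 27581468 and 22622592 in the WT libraries. NHP6A had 11.1 and 12.01 CPM (counts scaled to the TMM-adjusted library size) in nhp6ab and 122 and 130 CPM in WT. NHP6B had 33.4 and 32.6 CPM in nhp6ab and 80.0 and 86.0 CPM in WT. Both targeted genes were thus lower in both nhp6ab libraries, but neither was at 0, and the labels do not say which bases were removed. The alpha-factor gene MF(ALPHA)1 had 837 and 942 CPM in nhp6ab and 806 and 773 CPM in WT, while none of the 4 tested genes used by a cells exceeded 23.5 CPM in any library. Of the 4 genes listed for alpha cells the other 3 were called lower: MF(ALPHA)2 had 101 and 106 CPM in nhp6ab and 424 and 359 CPM in WT (log2 fold change -1.92), SAG1 was at -1.05 and STE3 at -0.71. Over the 81 genes the replicates were farther apart than counting error allows (chi-square divided by its degrees of freedom 11.5 in nhp6ab and 44.5 in WT). The same measure over all genes tested was 22.4 in nhp6ab and 24.6 in WT.

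Transcripts of the large subunit made up a smaller part of the libraries in nhp6ab. The 81 genes held 7.56% and 7.79% of counts in nhp6ab and 10.1% and 9.85% in WT. Their share of TPM, a unit that corrects counts for transcript length, was 15.4% and 15.7% in nhp6ab and 18.8% and 19.2% in WT. Every member passed the filter on low counts. In edgeR's quasi-likelihood test, with p-values adjusted by Benjamini and Hochberg over 6422 genes and a call at an adjusted p under 0.05, 78 of the 81 members were lower in nhp6ab and 0 were higher. Of all genes tested, 49.5% were called, 25.0% lower and 24.5% higher. No member was higher with an unadjusted p under 0.05, and DESeq2 also called 0 higher. The median log2 fold change of nhp6ab over WT was -0.58 over the members, with a middle range of -0.74 to -0.43, against 0.01 over all genes tested.

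On CPM, both nhp6ab libraries were below both WT libraries for all 81 members, where 38.7% of all genes tested had that order. These values depend on how the libraries are scaled. On TPM, which is not rescaled between libraries, the nhp6ab libraries were below WT for 68 members (14.0% of all genes tested), above for 7 and overlapping for 6. With library size as the only scaling, 68 members were called lower and 6 had a positive log2 fold change. With limma on log2(TPM + 1), 58 were called lower and 2 (RPL27A and RPL1A) higher. Over all genes, 1606 were called lower and 1576 higher in the main test, against 800 and 3023 with library size alone and 617 and 3566 on TPM. Without the first WT library 1063 genes were lower and 901 higher, with 73 members lower, and without the second 918 genes were higher, with 77 members lower. The median of all genes stood at 0.22 with library size and at 0.28 on TPM. Relative to that median, the members' median was -0.59 in the main test, -0.59 with library size and -0.57 on TPM. As RNA was measured relative to the rest of each library, less RNA from these genes per cell and more RNA from the others cannot be told apart.

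**Figure D1:**
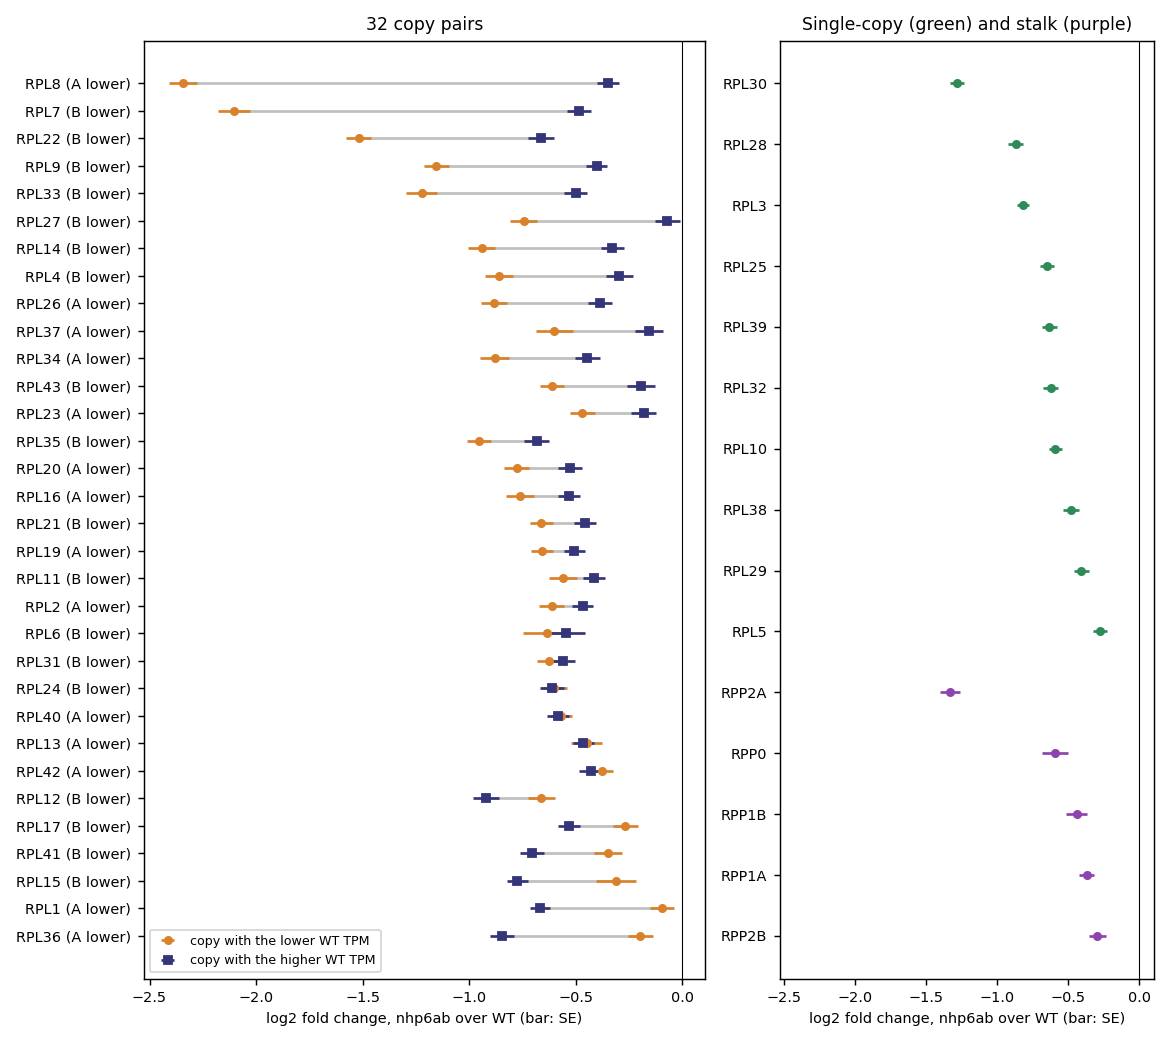
Log2 fold change of nhp6ab over WT for each member, with bars for the standard error. On the left, the copy pairs except 1 are drawn one per row, with an orange circle for the copy with the lower TPM in WT and a blue square for the copy with the higher one. On the right are the single-copy genes in green and the stalk genes in purple. All values drawn lie below 0 in this scaling, and 6 members lie above 0 with library size alone. RPL8A (-2.34) and RPL7B (-2.10) lie farthest from 0.

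The log2 fold changes of the members ranged from -2.34 to -0.07. Their SD across genes was 0.37, against 0.55 over all genes tested. In 7 of them the transcript was at least 2-fold lower in nhp6ab, a size reached by 3.18% of all genes tested: RPL8A, RPL7B, RPL22B, RPP2A, RPL30, RPL33B and RPL9B. Of these, 5 are copies of RPL pairs, 1 is a stalk gene and 1 is a single-copy gene. The 3 members that were not called were RPL37B, RPL27A and RPL1A. RPL37B had 578 and 530 CPM in nhp6ab and 617 and 617 CPM in WT (log2 fold change -0.16 ± 0.06, SE; adjusted p = 0.0823). RPL27A had 810 and 781 CPM in nhp6ab and 857 and 815 CPM in WT (-0.07 ± 0.06; adjusted p = 0.347). RPL1A had 865 and 866 CPM in nhp6ab and 902 and 944 CPM in WT (-0.09 ± 0.06; adjusted p = 0.204). In all 3 the nhp6ab libraries were the lower ones on CPM, and with library size or TPM the sign of each was positive. Across the 81 genes, Spearman's rho of the log2 fold change with the WT level in TPM was 0.11 and with coding length -0.05. Both are descriptions over genes that share the same 4 libraries.

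The stalk genes were all called lower, with a median log2 fold change of -0.44, but RPP2A stood apart from the other 4. RPP2A encodes one of the P2 proteins. Its transcript had 313 and 322 CPM in nhp6ab and 844 and 753 CPM in WT. The groups were far apart, with nhp6ab at 39.7% of WT (log2 fold change -1.33 ± 0.07; adjusted p = 2.92e-05). RPP2B, which encodes the other P2 protein, had 905 and 919 CPM in nhp6ab and 1158 and 1081 CPM in WT. Its fall was much smaller (-0.30 ± 0.06; adjusted p = 0.00589) and was not called with library size or on TPM.

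RPP0, the gene for the base of the stalk, had 1453 and 1417 CPM in nhp6ab and 2377 and 1952 CPM in WT. The WT libraries were farther from each other than the nhp6ab libraries, and both were higher (-0.59 ± 0.09; adjusted p = 0.00195). The P1 genes fell by similar amounts. RPP1A had 564 and 566 CPM in nhp6ab and 740 and 721 CPM in WT (-0.37 ± 0.06; adjusted p = 0.00174). RPP1B had 468 and 476 CPM in nhp6ab and 682 and 599 CPM in WT (-0.44 ± 0.07; adjusted p = 0.00294). On TPM neither P1 gene was called.

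The 10 single-copy genes were all called lower, with a median of -0.63 and a range of -1.28 to -0.27. RPL30 was the farthest from 0. Its protein, which also binds its own transcript and limits its splicing, is encoded by an intron-containing gene on chromosome VII (chrVII:439091-439638, plus strand, R64). RPL30 had 1087 and 1063 CPM in nhp6ab and 2585 and 2650 CPM in WT (-1.28 ± 0.05; adjusted p = 8.75e-06). No nhp6ab library came near a WT library. Per length, RPL30 had 3452 and 3467 TPM in nhp6ab and 6658 and 7095 TPM in WT, the third highest level of all members in WT.

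RPL28 and RPL3 came next. RPL28, in which certain mutations give resistance to cycloheximide, had 1496 and 1430 CPM in nhp6ab and 2605 and 2738 CPM in WT (-0.87 ± 0.05). RPL3, whose protein reaches the peptidyl transferase centre, had 4563 and 4419 CPM in nhp6ab and 7968 and 7889 CPM in WT (-0.82 ± 0.04). Both genes had replicates much closer together than the strains. RPL10, a late-joining protein close to the P site, had 3785 and 3944 CPM in nhp6ab and 5756 and 5882 CPM in WT (-0.59 ± 0.05).

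RPL25, RPL39, RPL32, RPL38 and RPL29 lay between -0.65 and -0.41. RPL25 and RPL39 encode proteins at the exit tunnel, and the RPL39 protein is among the smallest of the ribosome. RPL25 had 1354 and 1358 CPM in nhp6ab and 2119 and 2133 CPM in WT, and RPL39 had 149 and 152 CPM in nhp6ab and 235 and 231 CPM in WT. RPL5, whose protein carries the 5S rRNA into the subunit, fell least, with 2864 and 2895 CPM in nhp6ab and 3550 and 3418 CPM in WT (-0.27 ± 0.05; adjusted p = 0.003). The RPL5 call was lost with library size, and on TPM its groups overlapped with a log2 difference of 0.02. RPL29 was also not called on TPM.

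In most copy pairs the copies did not change alike. The same was true over all gene pairs of the table named A and B, so unequal changes were not particular to the members. For each pair the copy with the lower mean TPM in WT was set over the copy with the higher, and limma tested the change of the log2 ratio between strains, with p-values adjusted over all 61 gene pairs of the table named A and B. A ratio within a library does not depend on the scaling of that library. Of the 33 RPL pairs, the copy that was lower in WT fell more in 19, the copy that was higher in WT fell more in 7, and 7 were not called. Over all 61 pairs, 75.4% were called, 50.8% with the lower copy falling more and 24.6% with the higher copy falling more, and 35 of these 61 pairs are members. The copies that were lower in WT had a median log2 fold change of -0.63 with an SD of 0.48 across genes. The copies that were higher in WT had a median of -0.50 with an SD of 0.20.

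RPL8 was the pair with the largest shift. Both of its copies lack introns. RPL8A (chrVIII:35255-36025, minus strand) had 189 and 181 CPM in nhp6ab and 968 and 910 CPM in WT (-2.34 ± 0.07; adjusted p = 2.62e-06). RPL8B (chrXII:47859-48629, minus strand) had 1619 and 1621 CPM in nhp6ab and 2115 and 2012 CPM in WT (-0.35 ± 0.05; adjusted p = 0.00174). RPL8A thus held 10.3% ± 0.29 of the TPM of the pair in nhp6ab and 31.3% ± 0.18 in WT (SD, n = 2 each), a change of the log2 ratio of -1.99 ± 0.04 (SE; adjusted p = 7.39e-07 by limma). The coding sequences of the copies are 95.1% identical and differ at 38 positions, so some reads may have been divided between them by estimate.

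RPL7B followed. Both RPL7A and RPL7B have 2 introns and overlap a snoRNA gene on its own strand, SNR39 in RPL7A and SNR59 in RPL7B. Their coding sequences are 96.7% identical and differ at 24 positions, so here too some reads may have been divided by estimate. RPL7B (chrXVI:173152-174702, plus strand) had 44.4 and 49.4 CPM in nhp6ab and 210.2 and 193 CPM in WT (-2.10 ± 0.08; adjusted p = 6.36e-06). RPL7A (chrVII:364335-365996, minus strand) had 1745 and 1751 CPM in nhp6ab and 2542 and 2349 CPM in WT (-0.48 ± 0.06; adjusted p = 0.000611). RPL7B, the minor copy in both strains, held 2.61% ± 0.18 of the pair in nhp6ab and 7.61% ± 0.035 in WT, a change of the log2 ratio of -1.62 ± 0.06 (adjusted p = 2.62e-06).

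The stalk pair RPP2 was the third, with RPP2A at 26.6% ± 0.18 of the pair in nhp6ab and 42.6% ± 0.76 in WT (change of the log2 ratio -1.04 ± 0.04; adjusted p = 5.37e-06). RPL22B was the fourth. The RPL22 protein is not essential, and both copies carry an intron. RPL22B (chrVI:64243-64932, minus strand) had 26.6 and 26.0 CPM in nhp6ab and 77.1 and 73.4 CPM in WT (-1.52 ± 0.06; adjusted p = 8.67e-06). RPL22A (chrXII:263194-263948, plus strand) had 591 and 581 CPM in nhp6ab and 959 and 898 CPM in WT (-0.66 ± 0.06; adjusted p = 0.000212). RPL22B held 4.26% of the pair in nhp6ab and 7.44% in WT.

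The regions upstream of these 4 pairs are shown because they are the pairs whose copies changed most unequally. Each line runs from 300 to 51 bases before the start codon, 5′ to 3′ on the strand of the gene, from the RefSeq R64 genome. They are chrVIII:36076-36325 (minus strand) for RPL8A, chrXII:48680-48929 (minus) for RPL8B, chrXVI:172852-173101 (plus) for RPL7B, chrVII:366047-366296 (minus) for RPL7A, chrXV:253997-254246 (plus) for RPP2A, chrIV:1239192-1239441 (plus) for RPP2B, chrVI:64983-65232 (minus) for RPL22B and chrXII:262894-263143 (plus) for RPL22A. Capitals mark matches on either strand to 2 motifs: that of Rap1, searched as ACANCC followed directly by the letters NNACA, where N is any base, and the TATA box, searched as TATAAA.
RPL8A: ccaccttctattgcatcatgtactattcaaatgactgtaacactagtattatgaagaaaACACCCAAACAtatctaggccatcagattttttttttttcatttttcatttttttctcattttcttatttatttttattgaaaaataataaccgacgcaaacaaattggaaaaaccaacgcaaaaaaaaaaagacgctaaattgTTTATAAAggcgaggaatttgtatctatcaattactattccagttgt
RPL8B: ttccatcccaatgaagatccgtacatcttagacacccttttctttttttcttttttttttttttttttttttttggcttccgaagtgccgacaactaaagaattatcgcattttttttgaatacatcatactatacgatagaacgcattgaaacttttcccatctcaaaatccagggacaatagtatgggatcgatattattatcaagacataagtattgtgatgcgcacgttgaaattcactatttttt
RPL7B: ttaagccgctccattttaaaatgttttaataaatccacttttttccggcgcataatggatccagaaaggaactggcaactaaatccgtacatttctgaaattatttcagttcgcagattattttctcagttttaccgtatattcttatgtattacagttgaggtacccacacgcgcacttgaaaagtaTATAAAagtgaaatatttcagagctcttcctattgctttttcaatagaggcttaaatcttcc
RPL7A: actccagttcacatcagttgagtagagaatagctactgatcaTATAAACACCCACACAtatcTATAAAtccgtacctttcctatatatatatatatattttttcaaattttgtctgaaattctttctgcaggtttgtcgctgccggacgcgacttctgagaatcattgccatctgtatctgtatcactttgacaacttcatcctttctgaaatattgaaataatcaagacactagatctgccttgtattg
RPP2A: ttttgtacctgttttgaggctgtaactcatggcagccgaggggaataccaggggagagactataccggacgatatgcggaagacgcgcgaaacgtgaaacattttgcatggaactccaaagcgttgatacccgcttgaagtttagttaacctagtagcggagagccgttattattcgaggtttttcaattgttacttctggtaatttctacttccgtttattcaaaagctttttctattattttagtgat
RPP2B: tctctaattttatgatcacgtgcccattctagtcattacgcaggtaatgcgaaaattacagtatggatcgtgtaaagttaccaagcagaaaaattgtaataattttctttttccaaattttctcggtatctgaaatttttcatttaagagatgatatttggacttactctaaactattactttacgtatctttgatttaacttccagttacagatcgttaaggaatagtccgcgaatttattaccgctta
RPL22B: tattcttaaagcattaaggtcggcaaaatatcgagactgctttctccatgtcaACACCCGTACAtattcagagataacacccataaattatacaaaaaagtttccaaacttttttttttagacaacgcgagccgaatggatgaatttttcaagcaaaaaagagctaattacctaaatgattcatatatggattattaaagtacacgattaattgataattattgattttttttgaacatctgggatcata
RPL22A: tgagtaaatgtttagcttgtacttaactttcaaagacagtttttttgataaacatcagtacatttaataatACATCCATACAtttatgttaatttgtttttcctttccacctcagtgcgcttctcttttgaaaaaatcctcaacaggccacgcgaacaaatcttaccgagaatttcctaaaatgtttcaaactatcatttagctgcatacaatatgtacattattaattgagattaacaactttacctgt
The Rap1 letters occurred once in the printed windows of RPL8A, RPL7A, RPL22B and RPL22A and not in those of RPL8B, RPL7B, RPP2A and RPP2B. In RPL7A the match shares a base with a TATA match. In RPL8A the second run of capitals holds the TATA letters on both strands. In the RPL8 pair the copy that fell more holds the Rap1 letters, and in the RPL7 pair it is the copy that fell less. Only exact letters were counted. The windows of RPL8B (agatccgtaca) and RPL7B (aaatccgtaca) hold runs that differ from them by a single letter, so a window without a match may still hold a Rap1 site.

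**Figure D2:**
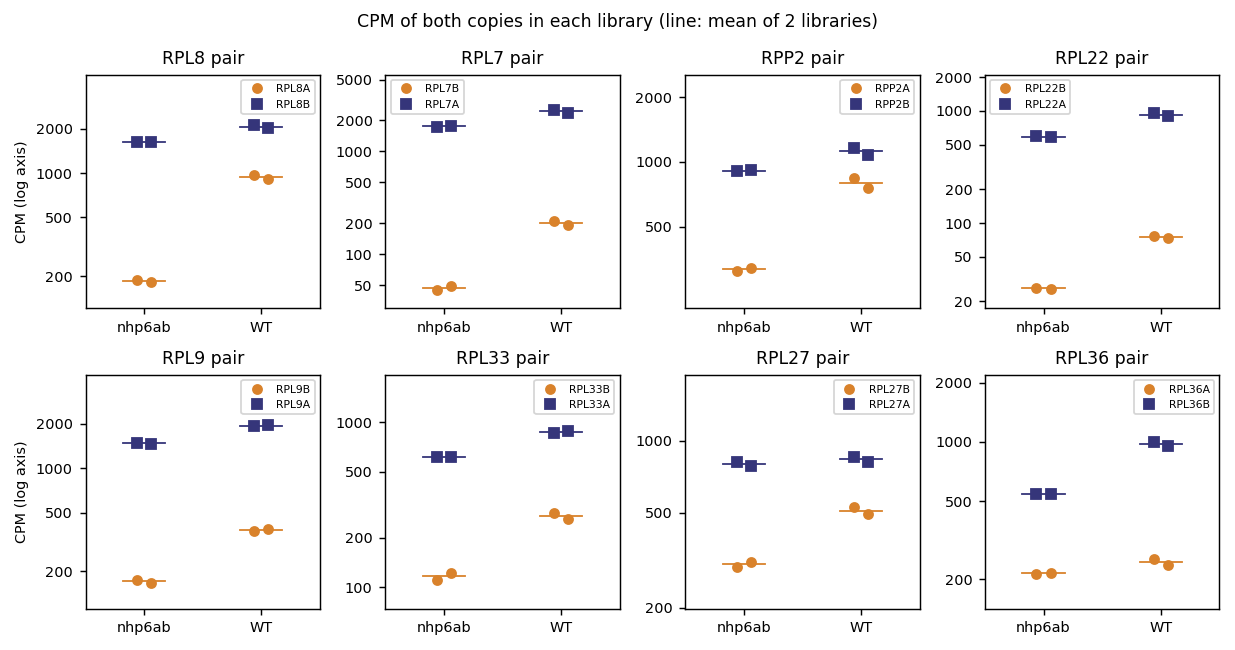
CPM on a log axis of both copies of the 8 pairs whose copies differed most, in each nhp6ab and each WT library. Orange circles are the copy with the lower TPM in WT, blue squares the other copy, and lines the mean of 2 libraries. RPL8A lies at 189 and 181 CPM in nhp6ab and at 968 and 910 CPM in WT, while RPL8B moves far less.

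Among the other pairs, RPL9B, RPL33B and RPL27B also fell more than their partners. RPL9B had 175 and 168 CPM in nhp6ab and 377 and 384 CPM in WT (-1.15 ± 0.06), while RPL9A had 1475 and 1458 CPM in nhp6ab and 1931 and 1942 CPM in WT (-0.40 ± 0.05). RPL33B had 111 and 122 CPM in nhp6ab and 283 and 260.5 CPM in WT (-1.22 ± 0.07), while RPL33A had 617 and 611 CPM in nhp6ab and 857 and 878 CPM in WT (-0.50 ± 0.06). RPL27B had 297 and 311 CPM in nhp6ab and 525 and 492 CPM in WT (-0.74 ± 0.06), and its partner RPL27A is one of the 3 members that were not called. The lower copy held 10.5% ± 0.19 of the RPL9 pair in nhp6ab and 16.4% ± 0.13 in WT, 16.0% ± 0.94 of the RPL33 pair in nhp6ab and 23.9% ± 1.4 in WT, and 27.6% ± 1.2 of the RPL27 pair in nhp6ab and 37.8% ± 0.26 in WT.

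Among the 12 members with the largest changes were 5 more copies, all called lower, at 51.6% to 54.3% of their WT level and with groups that did not overlap. RPL35B had 430 and 416 CPM in nhp6ab and 825 and 812 CPM in WT (-0.95 ± 0.06), and RPL14B had 168 and 177 CPM in nhp6ab and 342 and 322 CPM in WT (-0.94 ± 0.06). RPL12A had 396 and 421 CPM in nhp6ab and 784 and 763 CPM in WT (-0.92 ± 0.06). These copies contrasted with their partners to different degrees, since RPL35A was at -0.68, RPL14A at -0.33 and RPL12B at -0.66. The coding sequences of the RPL35 copies differ at only 3 positions and those of the RPL14 copies at 15, so the division of reads between them is uncertain. RPL26A, whose protein lies near the exit tunnel, had 325 and 339 CPM in nhp6ab and 629 and 595 CPM in WT (-0.88 ± 0.06), and RPL34A had 349 and 346 CPM in nhp6ab and 671 and 607 CPM in WT (-0.88 ± 0.07).

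In 7 pairs the main WT copy fell more, so that the minor copy gained share, among them RPL36, RPL1, RPL15, RPL41, RPL17 and RPL12. RPL36A had 212 and 216 CPM in nhp6ab and 254 and 236 CPM in WT (-0.20 ± 0.06; adjusted p = 0.0322), and RPL36B had 546 and 542 CPM in nhp6ab and 999 and 956 CPM in WT (-0.85 ± 0.06). RPL36A held 28.2% ± 0.35 of the pair in nhp6ab and 20.0% ± 0.31 in WT (change of the log2 ratio 0.65 ± 0.04; adjusted p = 4.27e-05). The RPL1 protein forms the mobile L1 stalk next to the E site. RPL1A held 32.0% ± 0.14 of the RPL1 pair in nhp6ab and 24.0% ± 0.82 in WT (0.57 ± 0.05; adjusted p = 0.000101). RPL1A and RPL1B have coding sequences that are 99.4% identical and differ at 4 positions. Those of RPL41A and RPL41B are 98.7% identical and differ at 1 position. The counts of such copies rest on few reads that tell them apart.

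RPL12 was the pair in which the lower WT copy became the higher one. Its protein sits at the base of the acidic stalk. RPL12B held 54.2% of the pair in nhp6ab and 49.7% in WT, where the copies were nearly equal and the libraries lay on either side of 50% (change of the log2 ratio 0.26 ± 0.05; adjusted p = 0.00245). RPL15 was the most unequal pair, with RPL15A at 57.7 times the TPM of RPL15B in WT. RPL15B held 2.34% ± 0.18 in nhp6ab and 1.70% ± 0.15 in WT.

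The pairs with the smallest difference were RPL40, RPL13 and RPL24. RPL40, whose genes encode a fusion of ubiquitin with the ribosomal protein, had both copies at the same change: RPL40A had 971 and 978 CPM in nhp6ab and 1441 and 1450 CPM in WT (-0.57 ± 0.05), and RPL40B had 1057 and 1043 CPM in nhp6ab and 1576 and 1572 CPM in WT (-0.58 ± 0.05). RPL13A and RPL13B changed by -0.45 ± 0.07 and -0.46 ± 0.05. RPL24A and RPL24B changed by -0.61 ± 0.06 and -0.60 ± 0.06. The change of the log2 ratio was 0.02 ± 0.04 in RPL40, 0.02 ± 0.06 in RPL13 and 0.01 ± 0.04 in RPL24. The copies of RPL11, RPL6, RPL31, RPL42 and the stalk pair RPP1 were not called apart either.

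**Figure D3:**
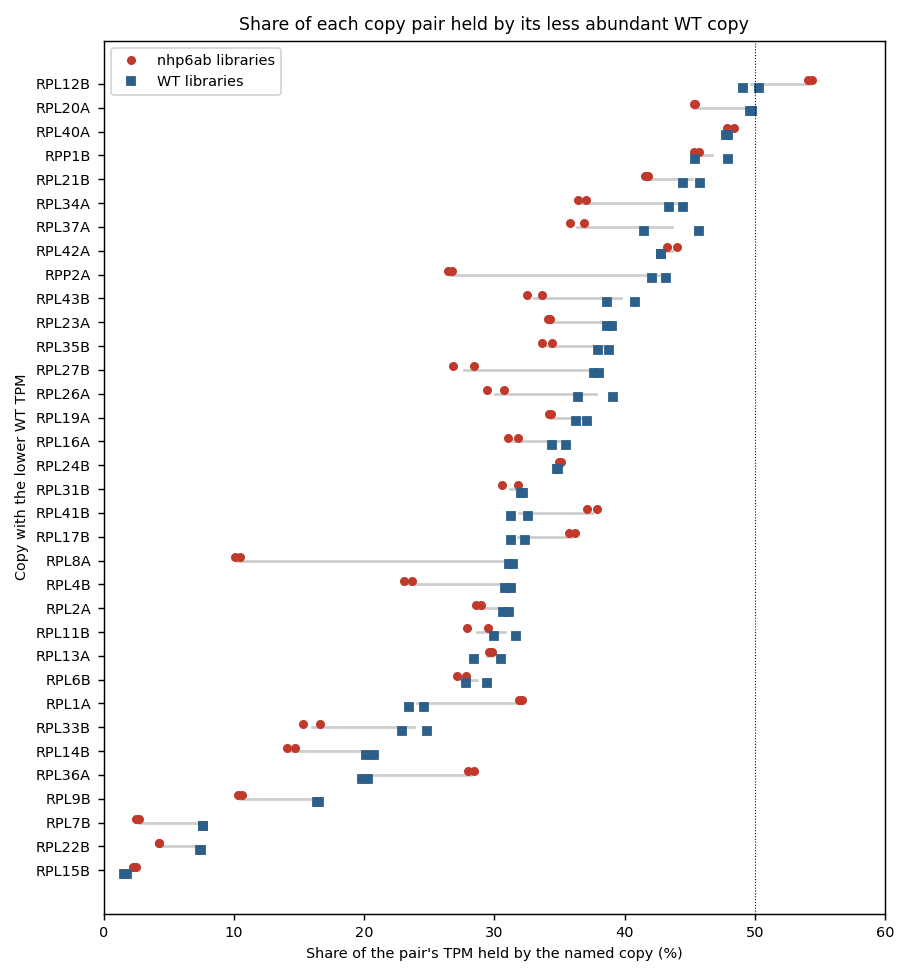
Share of the TPM of each pair held by the copy with the lower mean TPM in WT, in percent, for each pair of members except 1. Points mark single libraries, nhp6ab as circles and WT as squares, a grey line joins the means, and the dotted line stands at 50%. The share of RPL8A is 10.3% in nhp6ab and 31.3% in WT, and RPL12B lies above 50% in both nhp6ab libraries.

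The shifts were not confined to pairs with near-identical copies or to one class of gene structure. Among the 11 pairs with at least 95% identical coding sequences, the lower copy fell more in 6, the higher in 3 and neither was called in 2. Among the 22 less similar pairs, the counts were 13, 4 and 5. Of the 24 pairs with introns in both copies, the lower copy fell more in 16 and the higher in 3, and of the 9 other pairs, 3 and 4. Where WT copies were at least 2-fold apart, the lower copy fell more in 8 of 18 pairs and the higher in 6, and where they were closer, in 11 and 1 of 15. The differences between these classes were not tested.

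The copies of each pair were also summed, which weights each sum toward its more abundant copy. The 33 pair sums had log2 ratios of mean CPM between -0.79 (RPL12) and -0.29 (RPL23), with an SD across pairs of 0.14, while the 66 single copies had an SD of 0.39. None of the pair sums was 2-fold lower, while 5 of the single copies were. All 5 were the copy that was lower in WT. Taken alone, the copies that were higher in WT had an SD of 0.20, and 0 of them were 2-fold lower. The RPL8 pair summed to 1809 and 1802 CPM in nhp6ab and 3083 and 2921 CPM in WT (-0.73). The RPL7 pair summed to 1790 and 1801 CPM in nhp6ab and 2753 and 2541 CPM in WT (-0.56). Over all 48 proteins, counting pair sums, single-copy genes and stalk genes, the median was -0.57, and the only ones at least 2-fold lower were RPP2A and RPL30.

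Levels per protein differed between genes as well. In TPM, the median protein had 2872 in nhp6ab and 3413 in WT. The RPL41 pair, which encodes the smallest protein of the ribosome, was the highest, with 19371 and 19612 TPM in nhp6ab and 22801 and 24791 TPM in WT. Its coding sequence is only 78 bases, so its level per length is uncertain. RPL30, RPL10, RPL40 and RPL3 followed in WT. The lowest were RPL29, with 1108 and 1154 TPM in nhp6ab and 1206 and 1239 TPM in WT, and RPL39, with 1112 and 1165 TPM in nhp6ab and 1425 and 1457 TPM in WT. Of the stalk proteins, RPP2A had 982 and 1038 TPM in nhp6ab, the lowest of the 48 proteins in that strain, and 2150 and 1996 TPM in WT.

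**Figure D4:**
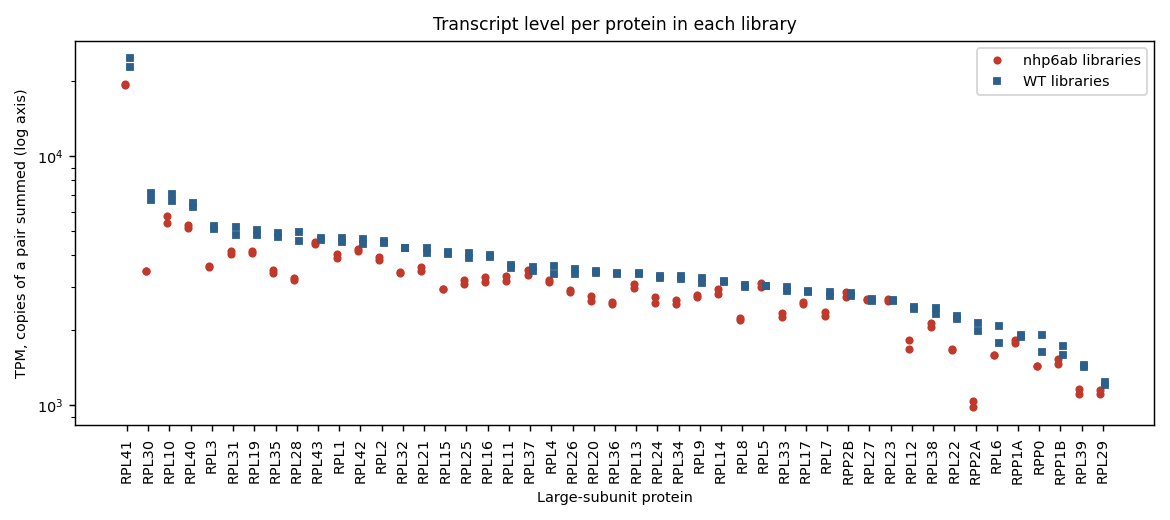
TPM on a log axis of each large-subunit protein except 1, with the copies of a pair summed and the stalk genes separate, in each nhp6ab library (circles) and WT library (squares). RPL41 is highest with 19371 and 19612 TPM in nhp6ab and 22801 and 24791 TPM in WT, and RPL30 and RPP2A show the widest gaps between strains.

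The members were also divided by gene structure and by upstream letters, and the differences between these classes were not tested. The 53 members with an intron had a median log2 fold change of -0.57 and 51 of them were called lower. The 28 without an intron had a median of -0.59 and 27 were called lower. The Rap1 letters occurred within 500 bases before the start codon in 23 of the 81 members (28.4%), in 19 of the 56 small-subunit genes (33.9%) and in 143 of all 6002 genes with such a window (2.38%). Members with a match had a median of -0.50 and the 58 others -0.61. Both copies held the letters in 3 of the 35 pairs of members, a single copy did in 14 and neither did in 18.

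The TATA letters were found before 37 members (45.7%) and before 60.6% of all genes. The median was -0.60 with a match and -0.56 without. The Abf1 motif, searched as TCANTN followed directly by the letters NNNACG, was found before 4 members (4.94%) and before 9.55% of all genes. All 3 searches covered both strands and counted exact letters only. A match is only a run of letters, not a bound site, and a window without a match may still hold a site.

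Most genes for regulators of these promoters did not fall with them. Of 14 regulators, 10 were called higher in nhp6ab and 2 lower, against 24.5% and 25.0% of all genes tested. The 2 not called were IFH1, which encodes a coactivator, and RPD3, a histone deacetylase. RAP1, which encodes the main DNA-binding activator, had a log2 fold change of 0.45 ± 0.05 (adjusted p = 0.000671). FHL1, whose protein recruits Ifh1 or the corepressor Crf1, was at 0.42 ± 0.06, and CRF1 at 0.60 ± 0.08. SFP1, for a nutrient-regulated activator, was at 0.28 ± 0.05. The kinase genes SCH9, TOR1 and TOR2 and the TORC1 subunit gene KOG1 were between 0.20 and 0.40, the histone acetyltransferase gene ESA1 was at 0.30 ± 0.07 and the general regulatory factor gene REB1 at 0.42 ± 0.05.

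HMO1 and ABF1 were the regulators called lower. HMO1 encodes another HMG-box protein, which is found at many of these promoters and at rDNA, and its log2 fold change was -0.42 ± 0.05 (adjusted p = 0.000992). ABF1, which encodes a general regulatory factor, was at -0.38 ± 0.05 (adjusted p = 0.000924). On TPM neither was called. Of the 14 regulators, 12 were called higher with library size and 12 on TPM. Of the 6422 genes tested, 3023 were called higher with library size and 3566 on TPM. Leaving out a library gave the regulators a median of 0.25 to 0.30.

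Genes for chaperones of single large-subunit proteins and for late assembly factors gave a mixed picture that depended on the scaling. Of 19, 9 were called lower and 2 higher in the main test, with a median of -0.19. With library size alone 1 was lower and 5 higher, and on TPM 1 and 6. Of the 6422 genes tested, 25.0% were called lower and 24.5% higher in the main test. With library size 800 were lower and 3023 higher, and on TPM 617 and 3566. Without the first WT library 5 were called lower and 0 higher, and without the second 4 and 2. NMD3, the export adaptor of the subunit, was at -0.53 ± 0.06 (adjusted p = 0.000655), and SYO1, whose protein imports Rpl5 with Rpl11, at -0.52 ± 0.14 (adjusted p = 0.0181). RRB1, for the chaperone of Rpl3, was at -0.37 ± 0.06 and ACL4, for that of Rpl4, at -0.32 ± 0.06. MRT4, whose protein holds the place of P0 during assembly, was at -0.28 ± 0.07 and turned to 0.01 on TPM. The calls of SYO1 and MRT4 were lost without either WT library.

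The other genes called lower were REI1 and ARX1, for factors of subunit export and its release, RLI1, for an ATPase that also recycles ribosomes, and EFL1 (RIA1 in RefSeq), for the GTPase that helps release Tif6. They lay between -0.41 and -0.19, and the last of these, EFL1, was positive with library size and on TPM. SQT1, for the chaperone of Rpl10, was higher (0.31 ± 0.06; adjusted p = 0.0069), as was ALB1, for a partner of Arx1 (0.34 ± 0.07; adjusted p = 0.00569), and both calls were lost without the first WT library. RPL10 itself was lower, at -0.59. BCP1, TIF6, YVH1, LSG1, JJJ1, RLP7, RLP24 and SDO1 were not called.

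The fall was shared by the small subunit and not by the mitochondrial large subunit. Of 56 small-subunit RPS genes, 53 were called lower and 1 higher, with a median of -0.65. Their share of TPM was 10.2% and 10.4% in nhp6ab and 12.8% and 13.2% in WT. Of 34 MRPL genes, which encode proteins of the mitochondrial large subunit, 4 were called lower and 11 higher, with a median of 0.13. Of all 6422 genes tested, 25.0% were called lower and 24.5% higher. With library size, 0 MRPL genes were lower and 24 higher, where 800 of all genes were lower and 3023 higher. Without the first WT library 1 was lower and 7 higher, and without the second 1 and 6. The difference between the sets was not tested.

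**Figure D5:**
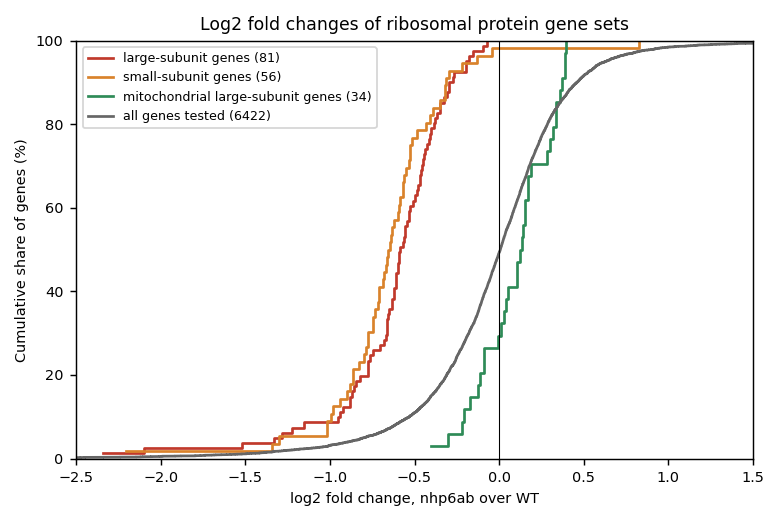
Cumulative share of genes, in percent, at or below each log2 fold change of nhp6ab over WT, for the large-subunit members, the small-subunit genes, the mitochondrial large-subunit genes and all genes tested. The curves of both cytosolic subunits lie left of 0 except for 1 small-subunit gene, with medians of -0.58 and -0.65, while the mitochondrial set lies slightly right of 0 (0.13) and all genes at 0.01.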

How the data were processed

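Polyadenylated RNA of 2 nhp6ab and 2 WT libraries was analysed, grouped by the titles and genotypes in the labels. Per the labels' protocols, a phenol and chloroform extraction preceded standard Illumina library preparation. The authors deposited RSEM expected counts and RSEM TPM per gene, named so in the deposited sheets, and the submitters' processing notes name sacCer3. Not given in the sources used here: aligner, annotation, RSEM version and use of strand. RSEM divides reads that fit several genes by estimate, so near-identical copies are uncertain, and reads of overlapping or antisense genes may be mixed.

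Of the 6688 identifiers, 6005 matched the RefSeq R64 annotation, which gave names and coordinates. The 683 others held 1.54 to 1.95% of counts, and 4 lines without an identifier were left out. Rounded expected counts entered edgeR 4.0.16 in R 4.3.3 (TMM, minimum count 10 and total 15, quasi-likelihood F test, strain only, 2 residual degrees of freedom). CPM values use the TMM factors, 1.06 and 1.10 in nhp6ab and 0.924 and 0.934 in WT. The SE is the absolute log2 fold change over the root of F. Pair ratios used log2 CPM (prior count 2) and limma 3.58.1. Identity of copies was computed over aligned coding sequences with Biopython 1.88. Figures used Python 3.11.15 and matplotlib 3.10.9. The fits were tested on simulated data.

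The labels do not say whether the 2 libraries of a strain came from separate cultures, so the p-values cover the spread between libraries, which can be technical. The members and lists were chosen with earlier results of these data known. The genes named with values are NHP6A and NHP6B, the stalk and single-copy genes, both copies of the 8 pairs with the largest and the 3 with the smallest difference between copies, the 12 members with the largest changes, members not called and the tested genes of the 2 lists. RPL12, RPL14A, RPL15, RPL35A, RPL41 and the neighbouring genes of the closing section were added after their values were seen. Results of 1 member and its pair are not reported here by name and are only part of the counts and medians. The alternatives tried were library size alone, upper quartile or DESeq2 1.42.0 size factors, DESeq2 itself, TMM leaving out ribosomal protein genes, 2 other filters, limma on TPM after log2 with a pseudocount of 1 or 0.1, a prior count of 0.5, only pairs under 95% identical, a replicate term and leaving out each library.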

Additional observations from a re-analysis of the deposited data

How the results depend on the processing

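With library size alone 800 genes were lower and 3023 higher, and the members' median was -0.37. On log2(TPM + 1) and log2(TPM + 0.1) 617 and 614 genes were lower, 3566 and 3558 higher, 2 members higher on each, and the members' median was -0.29 on each. Leaving out each library gave 1964 to 3019 genes called, 1063 to 1557 lower and 901 to 1462 higher, 73 to 77 members lower with a median of -0.60 to -0.52, 39 to 47 pairs called, and among the RPL and RPP pairs (20 and 7 in the main test) 17 to 21 with the lower and 6 to 7 with the higher copy falling more. The lowest counts of genes came without the first WT library (1964) and without the second (2022). Only pairs under 95% identical gave 30 calls over all pairs, and among RPL and RPP pairs 4 with the higher copy falling more. With library size, log2(TPM + 1) and log2(TPM + 0.1), in that order, the log2 fold change became positive for RPL1A (0.12, 0.20, 0.20), RPL27A (0.14, 0.22, 0.22), RPL36A (0.017, 0.098, 0.099), RPL37B (0.055, 0.14, 0.14), TIF6 (0.068, 0.15, 0.15), YVH1 (0.077, 0.15, 0.16), RLP7 (0.14, 0.22, 0.22), SDO1 (0.11, 0.19, 0.19) and EFL1, listed as RIA1 (0.019, 0.092, 0.096). On both TPM scales it was also positive for RPL5 (0.0187, 0.0187), MRT4 (0.0139, 0.0139) and JJJ1 (0.035, 0.035). Values near 0 changed sign when a library was left out: IFH1 ranged from -0.038 to 0.14, BCP1 from -0.060 to 0.058, RLP7 from -0.16 to 0.0028, RLP24 from -0.031 to 0.15, and the copy ratio of RPP1 from -0.14 to 0.0083 and of RPL13 from -0.054 to 0.090. BCP1 was also at -0.011 with upper quartile factors and -0.0040 with TMM without ribosomal protein genes. The cause was not tested. In all, 959 of 1092 gene values and 256 of 269 pair values under the alternatives kept their direction and side of the threshold. Leaving out a library ended the calls of RPL23B, RPL36A, RPL43A, RPL15B and RPL17B in at least 1 case, and those of the RPL21, RPL19 and RPL2 pairs.

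Same-numbered libraries did not deviate together (r = -0.065 over 6422 genes), so the replicate numbers only name the libraries. With a replicate block 1686 genes were lower and 1626 higher, 77 members were lower (RPL23B lost its call, adjusted p = 0.0558), and 41 pairs were called, 18 of the RPL and RPP pairs with the lower and 7 with the higher copy falling more. Among the members, CPM in nhp6ab was lowest for RPL22B, RPL7B and RPL15B, and the number of libraries limits every test.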

Other observations

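Some members lie next to another ribosomal protein gene, and neighbours did not always change alike. RPL24A and RPL30 are transcribed away from each other with 1156 bases between their coding regions, and their log2 fold changes were -0.61 ± 0.06 and -1.28 ± 0.05 (SE). RPS15 and RPP2A are divergent with 719 bases between them, at -0.77 ± 0.07 and -1.33 ± 0.07. RPS22A and RPL39 are divergent with 630 bases between them, at -1.34 ± 0.06 and -0.63 ± 0.05. RPS16B and RPL13A are divergent with 634 bases between them, at -0.71 ± 0.05 and -0.45 ± 0.07, and their counterparts RPL13B and RPS16A, with 720 bases between them, were at -0.46 ± 0.05 and -0.60 ± 0.05. Among neighbours that are not divergent, RPS9B and RPL21A lie on the same strand with 761 bases between them, at -0.52 ± 0.06 and -0.46 ± 0.05. RPL13A and RPP1A are transcribed toward each other with 413 bases between them, at -0.45 ± 0.07 and -0.37 ± 0.06. The differences between neighbours were not tested.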
